A study of Mus musculus with 6 samples.

Results

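Macrophages of the mouse dermis were sorted into CX3CR1low, CX3CR1int (intermediate) and CX3CR1high subsets, and the question addressed here was which genes peaked or dipped in the CX3CR1int cells instead of following the order of CX3CR1. For each gene the mean of the 2 CX3CR1int samples was set against the average of the CX3CR1low mean and the CX3CR1high mean, a difference on the log2 scale called the CX3CR1int contrast below. It was formed for all 22180 genes that had a probe set with exactly 1 gene symbol, the brightest probe set standing for the gene, and it used all 6 samples of the study. Of these genes, 15529 (70.01%) lay above the level treated as dim and were tested. Every sample came from digested ear skin of C57Bl/6 mice of 2 weeks with the genotype Cx3cr1+/gfp, kept in an SPF facility without ear clipping, and pooled 4 mice. In these mice a green fluorescent protein gene replaces a single copy of Cx3cr1, so that all subsets, the compared ones included, carry only a single working copy of that gene. The label CX3CR1high was used for the samples titled bright, there were 2 samples per subset, and the replicates of a subset came from independent litters.

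CX3CR1 is the receptor for fractalkine and marks monocyte-derived cells and several populations of tissue macrophages. Skin macrophages include cells that lie along blood vessels and carry scavenger and lectin receptors, cells associated with nerves that keep high CX3CR1, and cells recently derived from Ly6C+ monocytes. A subset with intermediate CX3CR1 could hold cells between the others, a mixture of them, or cells with features of their own, and a bulk array cannot separate these cases. For the same reason fewer cells of a type and less RNA per cell cannot be told apart in any value below.

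The array medians lay between 4.84 and 4.94 on the log2 scale, and the number of arrays limits the precision. All 8 macrophage markers examined, among them Adgre1, Csf1r and Cd68, were bright, at the 90.5th percentile of signal or above. Keratinocyte and fibroblast markers differed between samples. Their mean level in CX3CR1int samples was 6.48 and 6.75, against 6.92 and 7.59 in CX3CR1low and 6.37 and 6.53 in CX3CR1high samples. Replicates 1 and 2 of every subset also differed in sex composition. The transcript Xist was at 7.39, 7.61 and 7.97 in the replicates numbered 1 and at 11.24, 10.99 and 11.39 in those numbered 2.

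No gene passed the test of the CX3CR1int contrast. Of 15529 genes, 0 (0%) were called by limma at a Benjamini-Hochberg adjusted p below 0.05, 849 (5.47%) had an unadjusted p below 0.05, of which 380 were higher (2.45%) and 469 lower (3.02%), and 35 (0.225%) had an unadjusted p below 0.001. The smallest adjusted p was 0.0518, for the RNA helicase gene Ddx5. With the replicate number as a block, which takes out the difference between replicates 1 and 2, limma called 3 genes (0.0193%), Ddx5, Rab26os and Ly6c2, each at an adjusted p of 0.0308. Among the 35 genes of smallest p, 26 were lower and 9 were higher in CX3CR1int cells. For scale, the SD of the contrasts over all genes was 0.220, against 0.324 for CX3CR1high minus CX3CR1low, and 44 genes reached a 2-fold contrast (0.283%) against 231 (1.49%). These spreads cannot be compared directly, since the contrast averages more samples and has the smaller SE, a median of 0.167 against 0.193. Of these 44 genes 15 were higher (0.0966%) and 29 lower (0.187%). Both CX3CR1int samples lay above all 4 other samples for 926 genes (5.96%), called peaks here, and below all 4 for 909 (5.85%), called dips. These counts describe the values and were not tested. The CX3CR1int mean lay between the means of the other subsets for 6047 genes, above both for 4867 and below both for 4615. In sign alone, 7884 contrasts were positive (50.8%) and 7616 negative (49%).

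**Figure D1:**
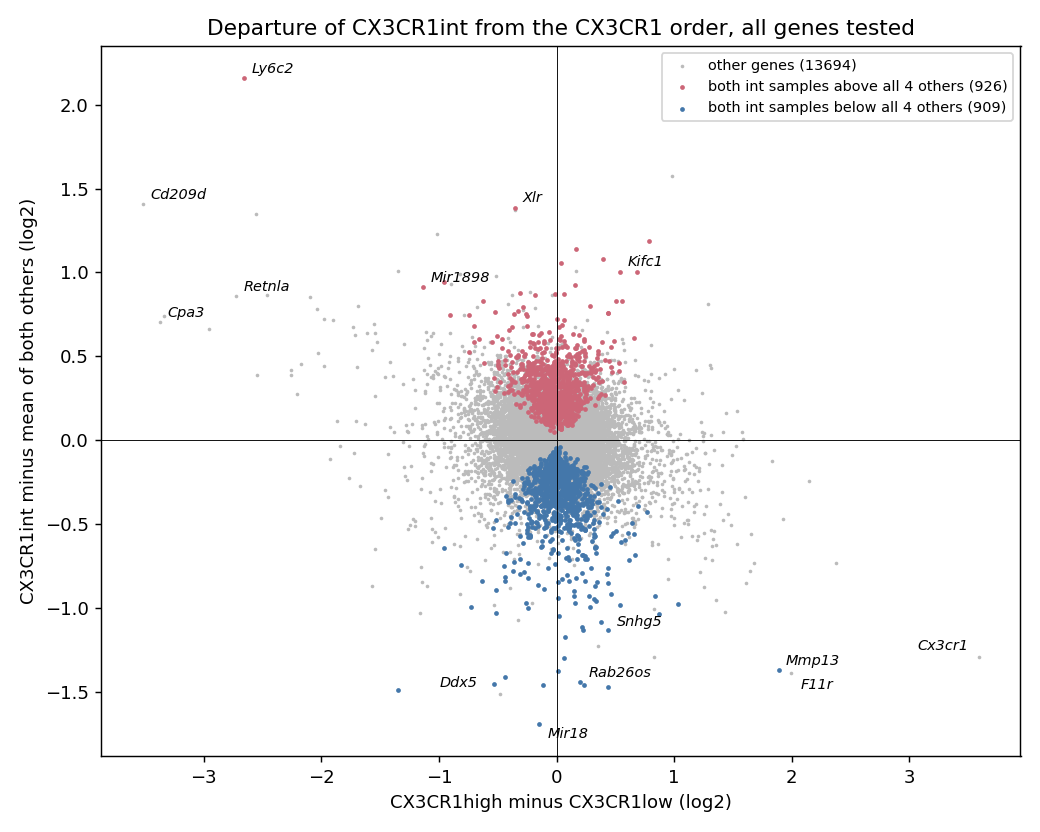
The CX3CR1int contrast (vertical axis, log2) is plotted against CX3CR1high minus CX3CR1low (horizontal axis, log2) for the 15529 genes tested, each point a gene, with the 926 peaks in red and the 909 dips in blue. Ddx5, Rab26os and Snhg5 lie far below 0 near the vertical midline, whereas Ly6c2 lies far above 0 on the side of genes lower in CX3CR1high cells.

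The leading dip among protein-coding genes was Ddx5, which encodes a DEAD-box RNA helicase that takes part in splicing and transcription. Ddx5 was at 8.72 and 8.84 in CX3CR1int samples, against 10.41 and 10.58 in CX3CR1low and 10.12 and 9.81 in CX3CR1high samples. Its CX3CR1int samples thus stood well below the other 4, and the groups did not overlap. In values joined by "then" from here on, the order is CX3CR1low, CX3CR1int, CX3CR1high. The contrast was -1.45 ± 0.14 (SE, n = 2 against 4 samples), a level 2.73-fold lower. Ddx5 was also the only gene for which limma called the CX3CR1int subset lower than each other subset taken alone (1 of 15529, 0.00644%). It fell by 1.72 on the log2 scale against CX3CR1low (adjusted p = 0.0426) and by 1.19 against CX3CR1high (adjusted p = 0.0474). With the replicate block these adjusted p-values were 0.0503 and 0.0309, so the call against CX3CR1low was lost. With any of the 6 samples left out, 0 genes were called against each of the other subsets.

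Ccnl2 encodes cyclin L2, a partner of kinases that act in splicing, and was named for its small p after its values were seen. The gene was at 9.05 and 9.04 in CX3CR1int samples, against 9.64 and 9.96 in CX3CR1low and 10.01 and 9.77 in CX3CR1high samples. The contrast of Ccnl2 was -0.80 ± 0.15, and a second probe set for the gene gave -0.82. Both CX3CR1int samples lay below all others on each probe set, although the contrast did not pass the test (adjusted p = 0.359, limma).

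Several other dips had larger contrasts but wider spread or a different shape. Mmp13, a collagenase of matrix turnover, was at 5.68 and 5.67 in CX3CR1int samples, against 5.81 and 6.39 in CX3CR1low and 7.81 and 8.17 in CX3CR1high samples. Its contrast of -1.37 ± 0.20 came mostly from the high values of CX3CR1high cells, since the CX3CR1int samples lay only just under the lower CX3CR1low sample. Neurl3, an E3 ubiquitin ligase, had contrast -1.03 ± 0.31, and Pdlim7, a scaffold protein of the actin cytoskeleton, had -0.98 ± 0.22. The higher CX3CR1int sample of Neurl3, at 7.91, lay just under the lower CX3CR1low sample, at 7.94. Tlcd1, a membrane protein, had a contrast of -1.41 ± 0.42, but its second probe set gave -0.05. Defb6, a beta-defensin, had -1.17 ± 0.23, but its CX3CR1int samples, at 3.78 and 4.12, lay under the dim level of 4.335, so that the size is uncertain. Sele, the E-selectin of activated endothelium, and Col14a1, a collagen of fibroblasts, had contrasts of -0.99 ± 0.28 and -0.98 ± 0.22, with CX3CR1int samples between 4.85 and 5.06. Fibroblast markers differed by a median of -0.63 from CX3CR1low and of 0.36 from CX3CR1high samples. Col14a1 was highest in CX3CR1high samples, at 6.53 and 6.29. With the keratinocyte and fibroblast marker level as a covariate the contrasts were -0.65 for Sele and -0.76 for Col14a1. Whether other skin cells in the samples shaped these values was not tested. None of these 7 genes passed the test, and their adjusted p-values ran from 0.278 for Mmp13 to 0.816 for Tlcd1 and Neurl3.

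Rab26os, a long non-coding RNA transcribed from the strand opposite Rab26, was at 7.73 and 7.57 in CX3CR1int samples, against 9.07 and 8.91 in CX3CR1low and 9.39 and 8.99 in CX3CR1high samples. The contrast was -1.44 ± 0.16, or 2.71-fold lower, with an adjusted p of 0.0912 (limma) without the replicate block. Snhg5, a host gene whose introns carry small nucleolar RNAs, was at 8.41 and 8.13, then 7.40 and 7.32, then 8.87 and 8.54, a contrast of -1.13 ± 0.16 (adjusted p = 0.278). Against CX3CR1high cells alone limma called both genes lower in CX3CR1int cells, with log2 differences of -1.54 for Rab26os (adjusted p = 0.0405) and -1.34 for Snhg5 (adjusted p = 0.0474). Against CX3CR1low cells alone neither was called.

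The other genes of the Snhg family, which host small nucleolar RNAs, lay mostly on the same side. Of 14 Snhg genes tested, 13 were lower in CX3CR1int cells and 9 were dips (64.3%, against 5.85% of all genes), with a median contrast of -0.56 against 0.0025 over all genes. The family was singled out after its values were seen and was given no test, and 0 of its members passed the gene-wise test. The 9 dips were Snhg1, Snhg3, Snhg5, Snhg7, Snhg9, Snhg11, Snhg12, Snhg15 and Snhg20. Snhg15 had a contrast of -0.92 ± 0.18, Snhg7 of -0.85 ± 0.23, Snhg12 of -0.84 ± 0.15 and Snhg1 of -0.67 ± 0.18. Snhg12 was at 6.54 and 6.59 in CX3CR1int samples, against 7.24 and 7.32 in CX3CR1low and 7.46 and 7.59 in CX3CR1high samples, so that replicates stood close and the CX3CR1int pair stood apart. Snhg6 was lower by its mean, at -0.64 ± 0.20, but its second CX3CR1int sample overlapped CX3CR1low. Snhg10 was the exception, at 0.02 ± 0.15. The family's mean level in CX3CR1int samples was 6.83 and 6.92, against 7.26 and 7.38 in CX3CR1low and 7.51 and 7.37 in CX3CR1high samples, so both replicates showed the dip.

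The promoters of 3 long non-coding dips are shown because these transcripts dipped together and each has a single annotated start. Each sequence runs from 250 bases before to 50 bases after the start, in build GRCm38.p6 from RefSeq, and capitals mark a match to the TATA-box letters TATAAA.
Snhg5 (chr9:88522848-88523147, minus strand): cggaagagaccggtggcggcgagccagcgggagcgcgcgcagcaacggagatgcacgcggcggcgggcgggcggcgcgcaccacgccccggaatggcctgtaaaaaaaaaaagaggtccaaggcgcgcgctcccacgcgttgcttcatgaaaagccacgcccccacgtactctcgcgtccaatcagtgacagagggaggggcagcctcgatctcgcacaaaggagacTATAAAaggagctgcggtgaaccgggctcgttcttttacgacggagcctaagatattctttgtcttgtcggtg
Snhg12 (chr4:132308428-132308727, plus strand): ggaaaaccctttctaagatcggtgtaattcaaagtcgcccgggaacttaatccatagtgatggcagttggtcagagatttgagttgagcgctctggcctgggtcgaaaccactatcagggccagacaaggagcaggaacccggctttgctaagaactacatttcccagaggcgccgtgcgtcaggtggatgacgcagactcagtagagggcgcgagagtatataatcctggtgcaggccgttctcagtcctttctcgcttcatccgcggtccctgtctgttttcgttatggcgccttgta
Rab26os (chr17:24528001-24528300, plus strand): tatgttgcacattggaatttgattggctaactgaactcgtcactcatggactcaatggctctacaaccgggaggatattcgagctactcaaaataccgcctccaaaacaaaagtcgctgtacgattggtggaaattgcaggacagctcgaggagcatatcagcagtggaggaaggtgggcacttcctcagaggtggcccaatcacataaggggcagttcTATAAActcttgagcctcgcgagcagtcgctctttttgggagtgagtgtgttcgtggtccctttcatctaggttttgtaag
TATAAA began 23 bases before the start of Snhg5 and 31 bases before that of Rab26os, and it was not found on either strand of the Snhg12 window. Over all 32851 starts in the reference table, 8.32% held TATAAA on the gene's strand, 6.95% on the other strand and 13.6% on either strand. It began and ended 40 to 16 bases before the start in 1.99% of windows. Over the 15026 starts of genes tested, the same 4 shares were 5.36%, 3.90%, 8.61% and 1.76%. Of the 9 starts of the Snhg dips, 4 held TATAAA on the gene's strand and 2 in the narrower stretch. A match describes letters only, and variants of these letters were not searched for, in the Snhg12 window or elsewhere.

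Small nucleolar RNAs (snoRNAs), which guide chemical modification of ribosomal and spliceosomal RNA, gave low signals in CX3CR1int cells as a class. Their probe sets may not tell a mature snoRNA from a host transcript that still holds it. Of 60 snoRNA genes tested, 48 had a negative contrast, against 49% of all genes, 19 were dips (31.7%, against 5.85%) and 2 were peaks (3.33%, against 5.96%), and their median contrast was -0.37. Their mean level in CX3CR1int samples was 6.04 and 5.83, against 6.17 and 6.41 in CX3CR1low and 6.27 and 6.48 in CX3CR1high samples. The difference was thus present in both replicates but larger in the second. The class was also chosen after its values were seen, and 0 of its genes were called. Without CX3CR1int replicate 1 or 2 the snoRNA dips numbered 31 or 29. Over all 15529 genes the dips then numbered 2950 or 2670, against 909 with both samples. A single CX3CR1int sample makes the condition easier to meet, so the rise does not strengthen the snoRNA result. Snora33 was at 7.58 and 8.18 in CX3CR1int samples, against 9.32 and 8.97 in CX3CR1low and 9.11 and 9.30 in CX3CR1high samples, a contrast of -1.29 ± 0.20, but a second probe set gave -0.41. Snord104 had -1.08 ± 0.17, with samples at 8.71 and 9.0, then 7.74 and 8.18, then 9.21 and 9.26, without overlap. Snord52 had -0.93 ± 0.18. The small Cajal body RNA Scarna17, a related guide RNA, had -1.47 ± 0.32 on a probe set at 8.30 and 9.71 in CX3CR1int cells and between 10.14 and 10.71 elsewhere, and -1.46 on its second. The U3 snoRNA gene Rnu3a, listed as a small nuclear RNA, had -1.49 ± 0.28. In the other direction Snord15a peaked with 1.14 ± 0.33, its CX3CR1int samples at 7.21 and 5.83 and the others at or below 5.54.

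Most snoRNAs are cut from introns of other genes, so the levels of those host genes were set beside them. Of the 19 snoRNA dips, 17 lay within the span of a tested gene, on 14 different hosts, with strand not considered. The median contrast of these hosts was -0.18, and 6 of the 14 were themselves dips, against 5.85% of all genes. Snhg3 and Snhg12, already given among the Snhg dips, were among these 6. The hosts of all tested snoRNAs had a median of -0.15 with 12 dips among 39. Some hosts lay low too. Snord83b and Snord43 lie in Rpl3, a ribosomal protein gene with a contrast of -0.76 ± 0.19, and Snord52 lies in 1110038B12Rik, with -0.73 ± 0.16. Others lay near 0. Snora33 lies in Rps12 (-0.14 ± 0.11), Snora31 in Tpt1 (0.06 ± 0.09) and Snora41 in Eef1b2 (0.0025 ± 0.11), all genes of protein synthesis or growth whose contrasts were close to 0. The host contrast of Eef1b2 changed sign under the array-wide scalings. Some hosts lay higher. Rpl37, which holds the dip Snord72, was a peak at 0.425 ± 0.20, but at 0.105 without CX3CR1int replicate 2. Ipo7, which holds the dip Snora23, had 0.24 ± 0.15. Of the 14 hosts 10 had a negative and 4 a positive contrast, Tpt1 and Eef1b2 among the latter.

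**Figure D2:**
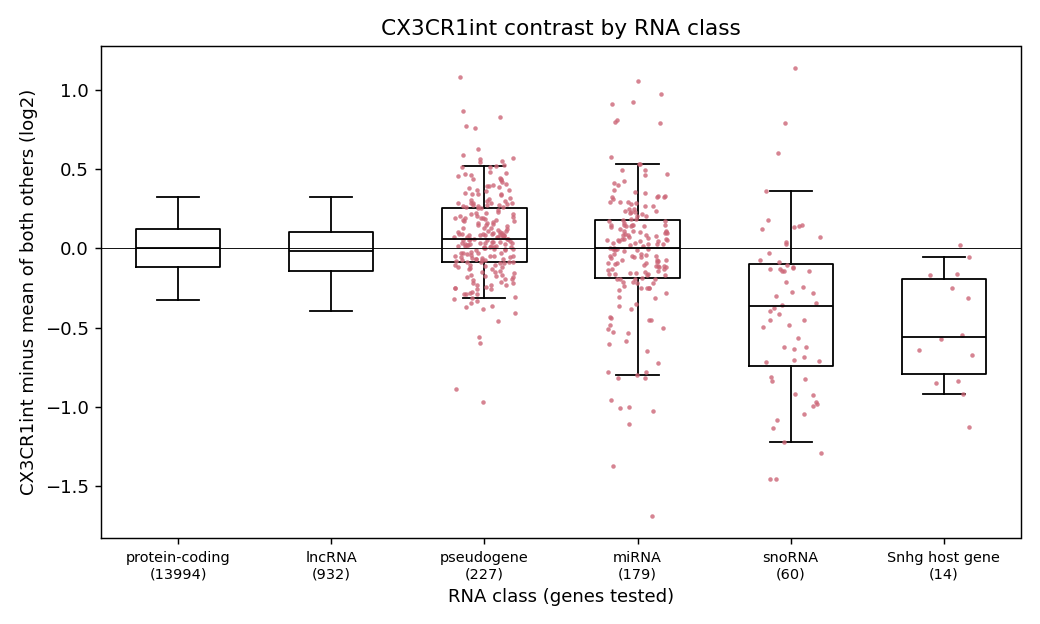
The CX3CR1int contrast (vertical axis, log2) is shown by RNA class, with boxes from the lower to the upper quartile, a line at the median, whiskers at the 5th and 95th percentiles, and points for single genes in classes of up to 227 genes. Protein-coding genes and long non-coding RNAs centre on 0, whereas snoRNAs (median -0.37) and Snhg host genes (median -0.56) lie below it.

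Probe sets of microRNA genes, which cover hairpins and cannot tell a mature microRNA from its precursor, went both ways. Of 179 tested, 18 were peaks (10.1%, against 5.96% of all genes) and 20 were dips (11.2%, against 5.85%), with a median contrast of 0.005, and 157 of them had a mature sequence in the RefSeq table. The 5 microRNA genes of smallest p were Mir677, Mir1898, Mir30c-1, Mir17 and Mir18. Their mature sequences are given with the seed, bases 2 to 8, in capitals, and coordinates in GRCm38.p6, to show which of them share a seed. Mir20a is added because it lies beside Mir17 and Mir18 on chromosome 14 and shares a seed with Mir17.
mmu-miR-677-5p (chr10:128085291-128085312, plus strand): uUCAGUGAugauuagcuucuga
mmu-miR-677-3p (chr10:128085335-128085360, plus strand): gAAGCCAGaugccguuccugagaagg
mmu-miR-1898 (chr15:12171502-12171523, plus strand): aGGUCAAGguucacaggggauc
mmu-miR-30c-5p (chr4:120769584-120769606, minus strand): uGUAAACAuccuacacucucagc
mmu-miR-30c-1-3p (chr4:120769546-120769567, minus strand): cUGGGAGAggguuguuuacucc
mmu-miR-17-5p (chr14:115043684-115043706, plus strand): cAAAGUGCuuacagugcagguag
mmu-miR-18a-5p (chr14:115043867-115043889, plus strand): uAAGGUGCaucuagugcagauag
mmu-miR-20a-5p (chr14:115044183-115044205, plus strand): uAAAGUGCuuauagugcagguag
The seeds of miR-17-5p and miR-20a-5p are the same, and the seed of miR-18a-5p differs from it. Among the tested genes 3 carried the miR-17 seed, Mir17, Mir20a and Mir106b.

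Mir677 was at 4.65 and 4.57 in CX3CR1int samples, against 5.58 and 5.64 in CX3CR1low and 5.71 and 5.95 in CX3CR1high samples, and the 3 subsets did not overlap. Its contrast was -1.11 ± 0.15 (adjusted p = 0.228, limma), while Atp5b, the ATP synthase gene whose span holds it, had 0.01 ± 0.12. Mir17 was at 6.71 and 7.35, then 6.06 and 5.26, then 7.13 and 6.95, a contrast of -1.38 ± 0.26. Mir18 was at 6.60 and 7.44, then 5.73 and 4.78, then 6.55 and 7.19, a contrast of -1.69 ± 0.33, the lowest of all genes tested. Both were dips in which the second CX3CR1int sample was the lower. Mir20a had -0.50 ± 0.31 and overlapped, as its second CX3CR1high sample was the lowest of all, and Mir106b had -0.05 ± 0.20. Genes of the same cluster or seed thus were not all dips, although all had negative contrasts. Mir27a and Mir23a, neighbours in another cluster, were dips at -0.96 ± 0.25 and -0.54 ± 0.16. Without CX3CR1int replicate 1 or 2 Mir27a was at -0.50 or -1.42. Mir511, which lies within the mannose receptor gene Mrc1, was a dip at -0.82 ± 0.28 while Mrc1 had 0.06 ± 0.11. Mir511 was at -1.25 without CX3CR1int replicate 1 and at -0.39 without replicate 2.

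Among microRNA peaks, Mir1898 was at 6.92 and 6.66 in CX3CR1int samples, against 6.37 and 6.52 in CX3CR1low and 5.39 and 5.23 in CX3CR1high samples. Its contrast of 0.91 ± 0.16 reflects mainly the low CX3CR1high values. Mir30c-1 was at 4.03 and 4.14, then 4.98 and 5.07, then 4.44 and 4.30, a contrast of 0.80 ± 0.14 with no overlap, but its CX3CR1low samples lay under the dim level, so that the size is uncertain. Mir30d, of the same family, was also a peak, at 0.47 ± 0.17. None of the microRNA genes passed the test of the contrast.

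The largest peak was Ly6c2, which encodes a form of the Ly6C antigen of inflammatory monocytes. Ly6c2 was at 7.35 and 7.90 in CX3CR1int samples, against 6.48 and 7.11 in CX3CR1low and 3.36 and 4.92 in CX3CR1high samples. The CX3CR1int samples were the highest, with the CX3CR1low samples next and the CX3CR1high samples far below, their mean of 4.14 under the dim level. The contrast was 2.16 ± 0.39, with an adjusted p of 0.359 in the limma fit without a block and 0.0308 with it. Against CX3CR1high cells alone Ly6c2 was called, higher by 3.48 (adjusted p = 0.0421), a size measured against dim signal, and against CX3CR1low cells alone it was not, at 0.83 (adjusted p = 0.996). The contrast of this gene therefore rests mostly on its low level in CX3CR1high cells. Its near-identical neighbour Ly6c1 was dim and was not tested, and the array may not separate these transcripts fully.

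Other peaks were smaller. Kifc1, a minus-end kinesin of the mitotic spindle, was at 5.91 and 6.25 in CX3CR1int samples, against 4.82 and 4.79 in CX3CR1low and 5.42 and 5.27 in CX3CR1high samples, a contrast of 1.005 ± 0.16. Its replicates stood close and its CX3CR1int values exceeded both other subsets, yet its adjusted p was 0.297. Nkap, a nuclear protein of NF-kB signalling and transcription, was at 6.19 and 6.28, then 6.78 and 6.70, then 5.74 and 5.69, a contrast of 0.77 ± 0.15. Gpr141, an orphan receptor of myeloid cells, had 1.005 ± 0.26, a size measured over dim signal in CX3CR1low cells (mean 3.78, against 5.12 in CX3CR1int and 4.46 in CX3CR1high). Clec4b1, a C-type lectin receptor, had a contrast of 0.87 ± 0.26. Xlr, of the X-linked lymphocyte-regulated family, had 1.39 ± 0.37, but its lower CX3CR1int sample, at 5.36, barely exceeded the higher CX3CR1low sample, at 5.32. Ms4a4c (0.94 ± 0.30) and Mcemp1 (0.83 ± 0.25) encode membrane proteins of myeloid cells, and Faim (0.88 ± 0.24) an inhibitor of Fas-induced death. The lower CX3CR1int sample of Ms4a4c, at 6.29, barely exceeded the higher CX3CR1low sample, at 6.22. For Faim these values were 6.22 and 6.17. Naa40 (0.83 ± 0.22), a histone acetyltransferase, Synj2bp (0.87 ± 0.29), a mitochondrial outer membrane protein, and Nat8f1 (0.79 ± 0.25) completed the 12 largest. Without CX3CR1int replicate 1 or 2 Synj2bp was at 0.37 or 1.36, and Nat8f1 at 1.23 or 0.35. Second probe sets gave 0.23 for Naa40 and 0.29 and 0.71 for Synj2bp.

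**Figure D3:**
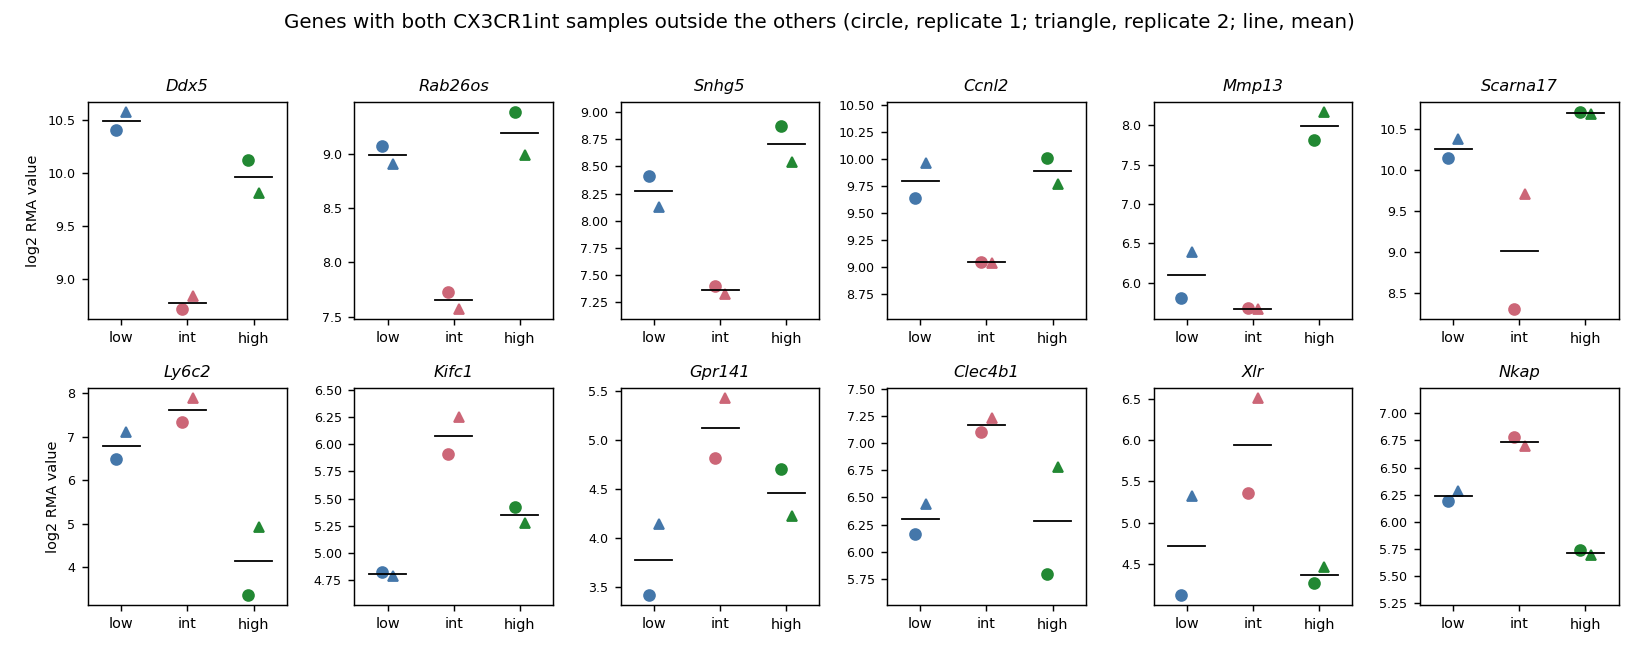
Values of 6 dips (upper row) and 6 peaks (lower row) are plotted for every sample, on the log2 RMA scale with an axis of its own for each gene. Circles are replicate 1, triangles replicate 2 and lines the subset means. In each panel both CX3CR1int points lie outside the 4 others, by a wide margin for Ddx5 and a narrow one for Mmp13, Gpr141 and Xlr.

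Of 227 pseudogenes tested, 141 were higher in CX3CR1int cells (50.8% of all genes were), 34 were peaks (14.98%, against 5.96%) and 6 were dips (2.64%, against 5.85%), with a median contrast of 0.06. Gm6625 led them, at 8.64 and 8.39 in CX3CR1int samples, against 7.38 and 7.09 in CX3CR1low and 7.35 and 7.91 in CX3CR1high samples, a contrast of 1.08 ± 0.20. The lowest was Pisd-ps3, a dip at -0.97 ± 0.21. It was at 6.03 and 6.57 in CX3CR1int samples and between 6.88 and 7.47 elsewhere. Pseudogene probe sets can share sequence with their parent genes, so that these values are uncertain, and this class too was noticed after the values were seen. The dips among long non-coding RNAs as a whole were 70 of 932 (7.51%), near the share over all genes.

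Among genes called between the ends of the CX3CR1 order, the CX3CR1int mean mostly lay between the ends and, without a covariate, nearer CX3CR1low. These genes were selected for their gap between the ends in the same samples, which by itself favours a mean in between. limma called 62 genes between CX3CR1high and CX3CR1low (0.399%), 154 with the replicate block (0.992%) and 0 without CX3CR1high replicate 1. The CX3CR1int mean lay between the means of the ends for 55 of the 62 (6047 of all 15529 genes), beyond CX3CR1low for 6 and beyond CX3CR1high for 1. On a scale from 0% at the CX3CR1low mean to 100% at the CX3CR1high mean, the median position was 24.1% (interquartile range 10.2% to 36.2%), and 55 of 62 lay nearer CX3CR1low. The median was 15.6% without CX3CR1int replicate 1 and 36.3% without CX3CR1int replicate 2. With the keratinocyte and fibroblast marker level as a covariate, 9 genes were called between the ends and their median position was 56.1%. Between CX3CR1int and CX3CR1high cells 17 of the 62 were called, against 0 between CX3CR1int and CX3CR1low. The latter comparison called 1 gene of all tested, and the former 22 (0.142%). With the replicate block they called 0 and 47 (0.303%). These comparisons share samples and are not independent.

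Cx3cr1 itself was at 7.05 and 6.84 in CX3CR1int samples, against 5.87 and 7.01 in CX3CR1low and 10.55 and 9.51 in CX3CR1high samples. Its CX3CR1int samples overlapped those of CX3CR1low, and its position was 14.1%. The lectin receptor gene Cd209d was at 10.05 and 9.35, then 8.97 and 9.73, then 6.11 and 6.26, a contrast of 1.41 ± 0.25 without being a peak. Retnla, a gene of alternatively activated macrophages, had a contrast of 0.86 ± 0.23 and a position of 18.5%. Clec12a, an inhibitory lectin receptor, had -0.73 ± 0.21 and 19.2%. Cpa3, a mast cell protease, stood at 29.1%, and the complement gene C4b at 27.6%. Bcl2a1a, a survival gene of the Bcl2 family, lay further along, at 38.8%, with CX3CR1int samples at 9.13 and 9.0 between 8.06 and 8.40 in CX3CR1low and 10.46 and 10.30 in CX3CR1high. Itgb5, an integrin subunit, was near the midpoint at 47.9%, and the keratin Krt10 stood nearer CX3CR1high at 70.2%.

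Among the 62 genes called between the ends, few lay beyond them. Mmp13, the junctional adhesion gene F11r and the activation marker Cd69 were higher in CX3CR1high cells and had positions of -22.5%, -19.5% and -19.5%, that is, below CX3CR1low. F11r was at 5.62 and 5.41 in CX3CR1int samples, against 5.54 and 6.27 in CX3CR1low and 8.26 and 7.54 in CX3CR1high samples, so its CX3CR1int and CX3CR1low samples overlapped. The laminin-binding integrin gene Itga6 was at -2.48%, the snoRNA gene Snord89 at -3.77% and Mir1898, lower in CX3CR1high cells, at -30.4%. The olfactory receptor gene Olfr724 was the single gene past CX3CR1high, at 113%, with CX3CR1int samples at 5.73 and 5.33 and CX3CR1high samples at 5.22 and 5.50.

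**Figure D4:**
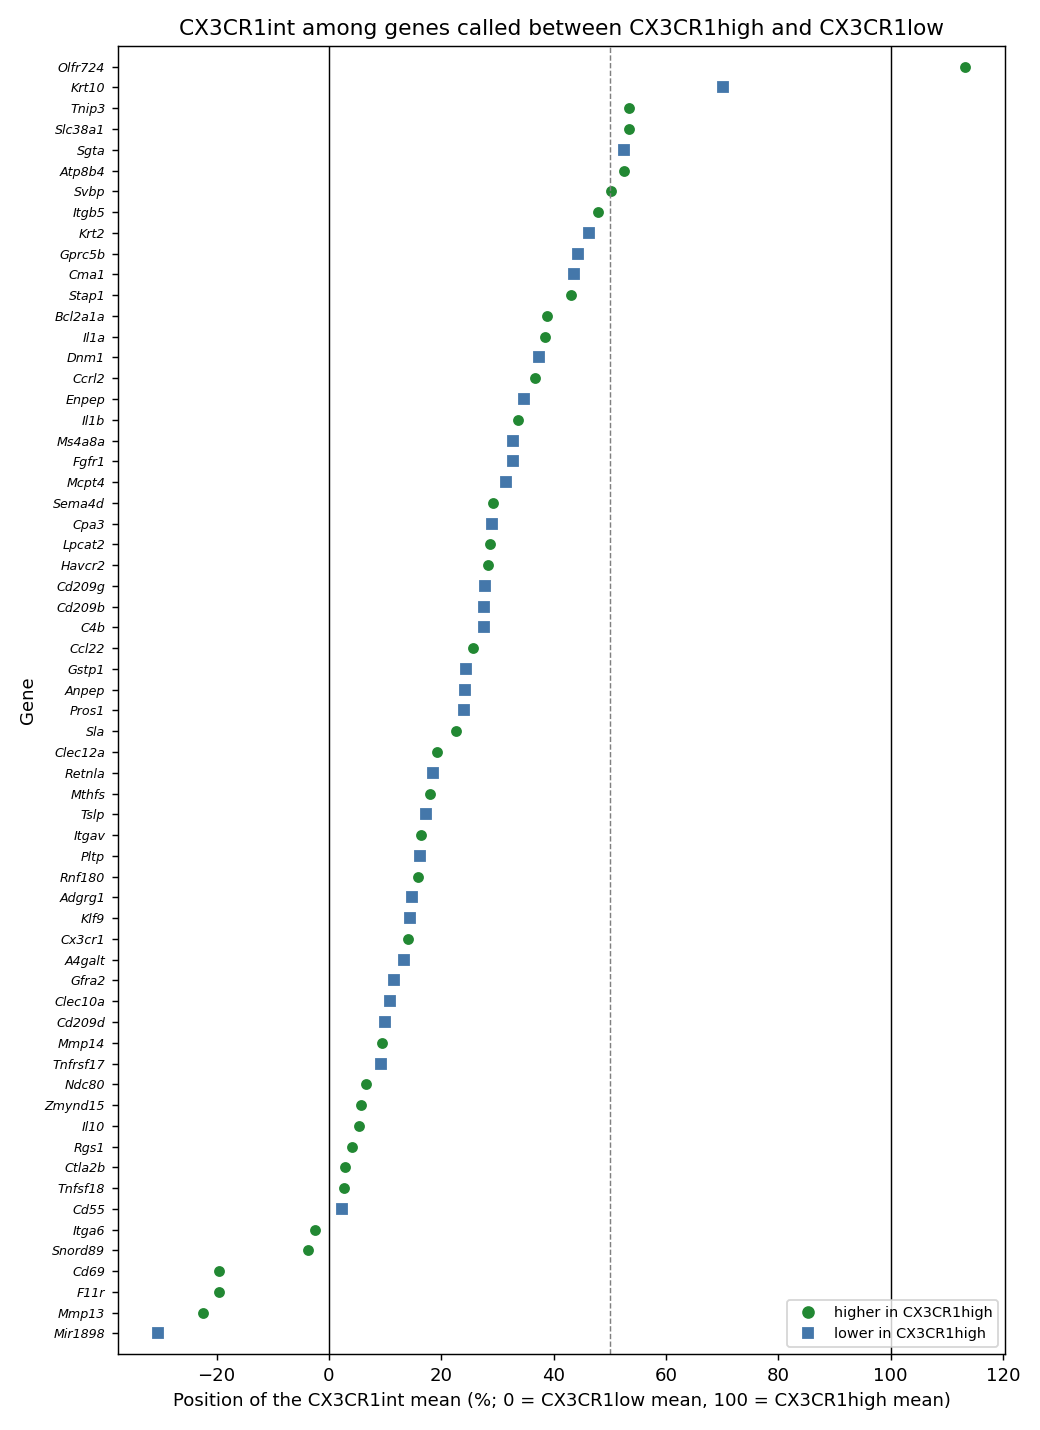
The position of the CX3CR1int mean (horizontal axis, %, with 0 the CX3CR1low mean and 100 the CX3CR1high mean) is plotted for the 62 genes called between CX3CR1high and CX3CR1low, each row a gene. Circles are genes higher in CX3CR1high and squares genes lower there, and 55 of the 62 points lie left of the dashed midpoint.

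Lists of genes for macrophage functions and for other skin cells, 45 in all, were then followed through the contrast. Of their 873 genes 728 were tested and 0 passed the test. The list genes held 39 peaks (5.36%) and 22 dips (3.02%), against 5.96% and 5.85% of all genes. Medians of 35 lists lay within 0.1 of 0 on the log2 scale, 5 lay at least 0.1 above and 5 at least 0.1 below.

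Monocyte genes had the highest median, 0.30, with 11 of 15 tested members higher in CX3CR1int cells. The list held 2 peaks, Ly6c2 and Ms4a4c, and 1 dip, S100a4, where 5.96% of all genes were peaks and 5.85% dips. The median of the list was 0.23 against CX3CR1low and 0.63 against CX3CR1high. Its mean level was 6.91 and 7.62, then 7.28 and 7.78, then 6.82 and 6.99, so CX3CR1int and CX3CR1low samples overlapped. The guanine deaminase gene Gda had 0.57 ± 0.26 with overlapping samples, and the chemokine receptor gene Ccr2, at 5.56 and 7.15, then 6.99 and 7.05, then 7.92 and 7.26, had 0.05 ± 0.38. Genes of perivascular-type resident macrophages were higher for 20 of 23, with a median of 0.22, but against CX3CR1low their median was -0.06 and against CX3CR1high 0.50. Their contrast thus followed the low level in CX3CR1high cells. Only Igf1 (0.21 ± 0.12) and Clec4n (0.23 ± 0.15) were peaks in that list, and Stab1, a scavenger receptor gene, was a dip (-0.38 ± 0.15). MHC class I and proteasome genes had a median of 0.14 and 12 of 15 higher, among them the peak H2-T23 (0.47 ± 0.18), a non-classical class I gene. Toll-like receptors and adaptors had 0.11, with 4 peaks of 18 (5.96% of all genes were peaks) and the adaptor gene Tirap as a dip (-0.23 ± 0.15). The peaks included the TLR4 co-receptor Ly96 (0.50 ± 0.16) and the RNA sensor Tlr3 (0.47 ± 0.20). Mast cell markers, with 5 of 7 higher, had 0.12, and the 3 subsets descended in order, with mean levels of 6.22 and 5.99, then 5.61 and 5.66, then 4.77 and 4.73.

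Keratinocyte markers had the lowest median, -0.28, with 19 of 20 lower, and 0 of them were dips, against 5.85% of all genes. The contrast came from CX3CR1low samples, against which the median was -0.61, while against CX3CR1high it was 0.13. Krt17, a keratin of hair follicles and activated epidermis, was at 6.51 and 7.65, then 5.23 and 6.10, then 5.63 and 6.24. Fibroblast markers had a median of -0.16 and 14 of 16 lower, again with opposite signs against CX3CR1low (-0.63) and CX3CR1high (0.36). Inflammatory cytokines and chemokines had -0.17, with 22 of 32 lower, and medians of 0.05 against CX3CR1low and -0.43 against CX3CR1high. The chemokine genes Ccl2 (0.05 ± 0.08) and Ccl7 (0.21 ± 0.09) were peaks in that list and Il27 (-0.17 ± 0.16) a dip. Il10, an anti-inflammatory cytokine, was at 10.13 and 10.28 in CX3CR1int samples, against 10.33 and 9.96 in CX3CR1low and 11.36 and 11.16 in CX3CR1high samples, a contrast of -0.50 ± 0.14 without a dip. Langerhans cell markers had -0.14, 7 of 9 lower, led by the lectin gene Cd207 at -0.79 ± 0.25, whose CX3CR1int samples, 6.00 and 6.85, overlapped CX3CR1low at 6.72 and 6.48. Immediate early and handling-stress genes had -0.11, with 18 of 27 lower and the dips Fos (-0.49 ± 0.15), Nfkbia (-0.31 ± 0.11) and Gadd45b (-0.40 ± 0.16). Fos, an immediate early transcription factor, was at 7.94 and 7.91, then 7.30 and 7.40, then 7.86 and 7.66.

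The remaining lists sat near 0. Genes of the respiratory chain were higher for 21 of 27 but with a median of only 0.07, and cytosolic ribosomal protein genes were lower for 24 of 34 with a median of -0.07. Mitosis genes ranged from -0.73 to 0.43, Ndc80 of the kinetochore at -0.73 ± 0.17 and Nusap1 of the spindle at 0.43 ± 0.19. The mitosis list held 0 peaks, against 5.96% of all genes. The iron transporter gene Slc11a1 was a dip at -0.71 ± 0.19, at 9.30 and 8.90, then 8.53 and 8.35, then 9.44 and 8.97. The formyl peptide receptor gene Fpr2 was a peak at 0.68 ± 0.17, and so was the interferon-inducible gene Ifi204 at 0.62 ± 0.19. The core macrophage list had a median of 0.02 over 19 genes, from -0.335 for Cd33 to 0.37 for Cd163. It held 2 peaks, Adgre1 and Itgam (0.20 ± 0.14), where 5.96% of all genes were peaks. Of the genes always given, Csf1r had a contrast of 0.06 ± 0.13, Mrc1 of 0.06 ± 0.11 and Lyve1 of 0.17 ± 0.18. H2-Aa had 0.02 ± 0.16 and Adgre1 0.16 ± 0.11, the last a peak by a margin within its SE.

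**Figure D5:**
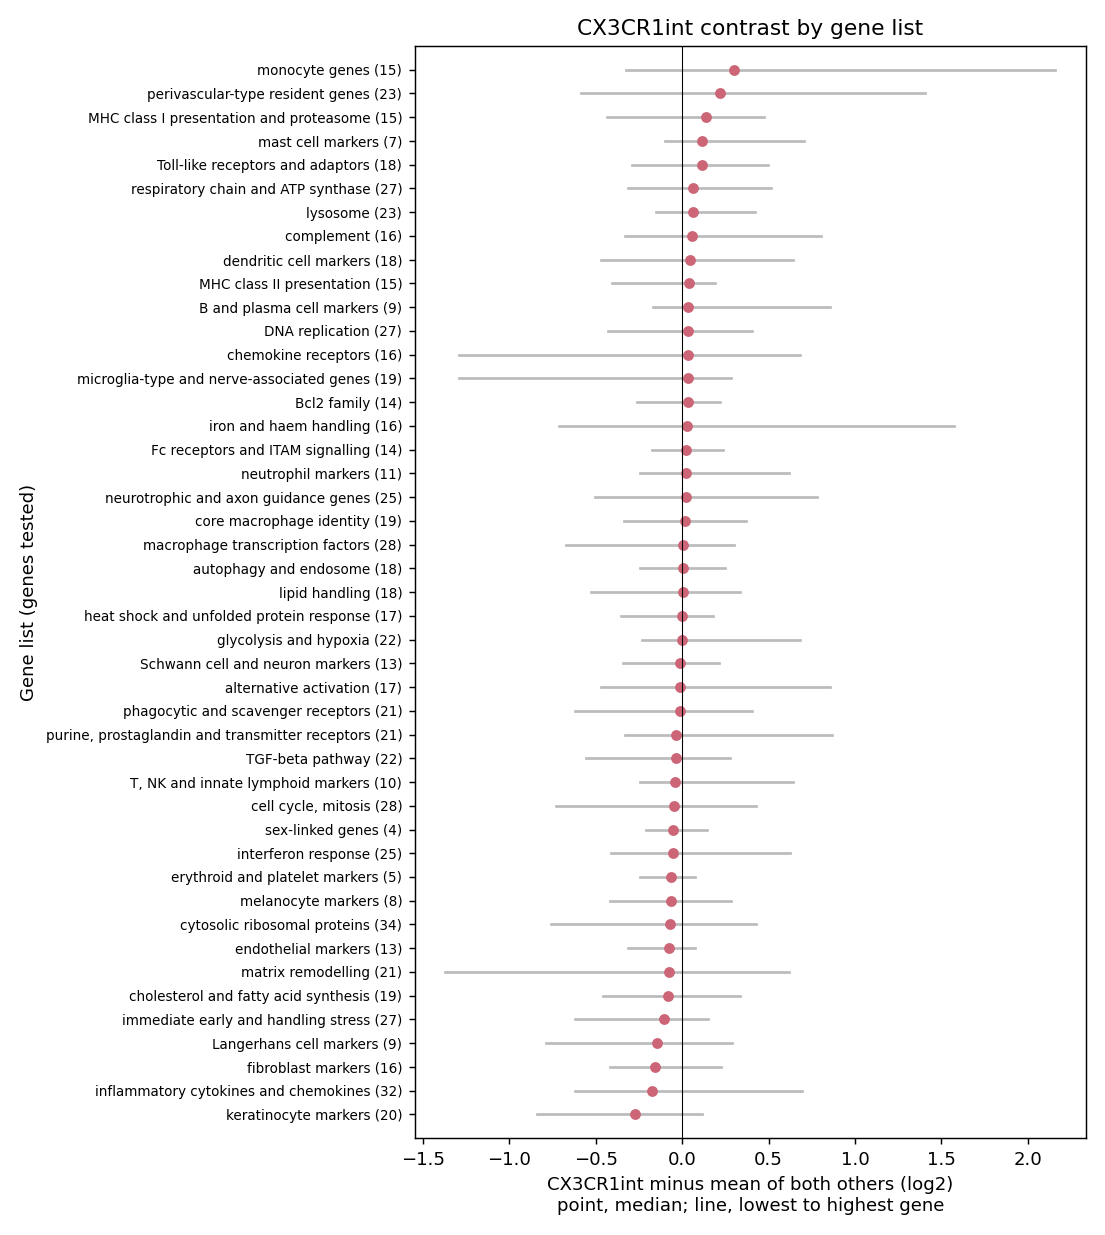
The median CX3CR1int contrast (point, log2) and the lowest to highest gene (line) are shown for 45 gene lists, with the number of genes tested in brackets. Most medians sit near 0, from 0.30 for monocyte genes to -0.28 for keratinocyte markers.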

How the data were processed

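Gene expression was measured on an Affymetrix array in 6 samples, 2 of each of 3 sorted subsets. The authors deposited log2 signals, used here as given, for which the submitters' processing notes name RMA and Affymetrix Expression Console 1.4. Per the labels' protocols, the hybridised material was cDNA from a whole-transcriptome amplification kit. Of 34390 probe sets, 23521 carried 1 symbol and entered, 1814 carried several and 9055 none. The brightest was kept where several covered a gene (1082 genes). Dim genes, with a mean under the 30th percentile (4.335), were not tested. No columns of values were left unused. Testing used limma 3.58.1 in R 4.3.3, with a mean per subset and an intensity trend in the variance prior, two-sided tests, Benjamini-Hochberg adjustment over 15529 genes and a call at an adjusted p below 0.05. The spread rested on 3 residual and 5.77 prior degrees of freedom, and the median SE of the contrast was 0.167. The fit was tested on simulated data.

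The labels do not say that a replicate number marks a shared litter. Samples of the same number deviated together from their subset means, with r = 0.146 for low and int, 0.136 for low and high and 0.178 for int and high (0.123, 0.113 and 0.158 leaving out sex-linked genes), and Xist separated the numbers in every subset. The numbers were therefore taken as pairing the samples, and the fit with a replicate block was run beside each result.

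The comparison and the gene lists were chosen with earlier results of these data known. Genes to name were first drawn by a rule. It took the 12 largest peaks and 12 largest dips, passing over clone names, olfactory and vomeronasal receptors and small RNA symbols. It added up to 3 genes of smallest p per list, the 6 largest high-low calls in each direction, and 8 genes always given. Not every gene drawn is described, and others, such as Itgb5 and Krt10, were named outside the rule. RNA classes, hosts and the genes described from them were chosen after seeing values. Gene types, neighbours and sequences came from RefSeq tables of GRCm38.p6, in which 23328 probe sets were found. The array's own build is not given in the sources used here. Alternatives were the block, other filters, probe set rules, variance priors, scalings and models, a covariate for keratinocyte and fibroblast markers, and leaving out each sample.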

Additional observations from a re-analysis of the deposited data

How the results depend on the processing

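The number of arrays limits every result, since 2 samples a subset left a median SE of 0.167 for the contrast. The call count of 0 became 3 with the replicate block, 1 (Ddx5) with a filter at the 50th percentile, with the mean of probe sets or with a robust prior, and 8 with the keratinocyte and fibroblast covariate (Ddx5, Rab26os, Xlr, Tlcd1, Thbs1, Vcan, Tarm1 and Gm9733). Leaving out samples gave 0 to 1, the 1 being Scarna17 without CX3CR1int replicate 2. The count of genes beyond each other subset, 1, became 0 with the block, without a dim filter, over every probe set, without the trend, with quantile normalization again, with median centring, with the covariate and in each leave-one-out fit (0 to 0). Peaks numbered 1423 and dips 1436 after the block, peaks 1453 over every probe set, and with a sample left out peaks ran from 1334 to 2957 and dips from 1267 to 2950, fewer samples making the condition easier. The snoRNA dips ran from 21 to 31 and the Snhg dips from 9 to 11 with a sample left out, class counts added after seeing the data. The median position of 24.1% moved to 56.1% with the covariate, under which 9 genes were called between the ends, and ran from 15.6% to 36.3% with a sample left out. Calls between the ends, 62, numbered 154 with the block, 26 without a dim filter, 23 over every probe set, 40 with median centring, and 0 (without CX3CR1high replicate 1) to 39 with a sample left out.

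Of 148 single genes followed, 6 changed sign under settings that left out no sample, all near 0. Eef1b2 went to -0.000208 with quantile normalization and -0.0025 with median centring, and H2-Aa to -0.0025 with quantile normalization. With the covariate Ddx3x went to 0.0907, Snhg10 to -0.0279, Atp5b to -0.0485 and Csf1r to -0.10. With a sample left out 12 genes changed sign, with ranges of -0.0925 to 0.1075 for Atp5b, -0.35 to 0.45 for Ccr2, -0.0525 to 0.1625 for Csf1r, -0.2625 to 0.2075 for Ddx3x, -0.03 to 0.035 for Eef1b2, -0.23 to 0.28 for H2-Aa, -0.34 to 0.27 for Itgb5, -0.3725 to 0.2775 for Mir106b, -0.02 to 0.13 for Mrc1, -0.0675 to 0.3225 for Nfyc, -0.0175 to 0.0575 for Snhg10 and -0.09 to 0.08 for Zfr. The cause of these changes was not tested. Of 94 followed genes with a contrast of at least 0.5 in size, 29 moved by over 1.5 times when a sample was left out. In the CX3CR1int contrast the block changed the calls of Ddx5, Rab26os and Ly6c2 and no other among the genes followed, while calls between CX3CR1int and CX3CR1high went from 22 to 47.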

Other observations

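Other genes of splicing and of nuclear RNA were looked up after the dips of Ddx5 and Ccnl2 were seen, without a fixed list and without a test of the group. Of the 8 looked up all had a negative contrast and 4 were dips, against 5.85% of all genes, a count over genes that were chosen for their likeness to those dips. None passed the test. Ccnl1, the other cyclin L gene, was a dip at 10.17 and 9.96 in CX3CR1int samples, against 10.39 and 10.70 in CX3CR1low and 10.59 and 10.42 in CX3CR1high samples, a contrast of -0.46 ± 0.14. The kinase gene Clk4, which phosphorylates splicing factors, was a dip at 8.88 and 8.96 in CX3CR1int, against 9.26 and 9.55 in CX3CR1low and 9.37 and 9.42 in CX3CR1high, a contrast of -0.48 ± 0.14. Ddx17, the paralog of Ddx5, and Rbm39, a splicing factor, were dips at -0.42 ± 0.15 and -0.23 ± 0.12. Clk1, the paralog of Clk4, had -0.30 ± 0.16 and overlapped CX3CR1low, as its CX3CR1int samples were at 9.33 and 9.22 and its lower CX3CR1low sample at 9.31. Ddx3x, another DEAD-box helicase, had -0.03 ± 0.16, with a sign that changed under the covariate. The abundant nuclear RNA Malat1 had -0.22 ± 0.12 without a dip. Neat1, the RNA of paraspeckles, was at 9.70 and 9.06 in CX3CR1int samples, against 10.14 and 10.70 in CX3CR1low and 9.63 and 9.57 in CX3CR1high samples, so that CX3CR1int cells differed from CX3CR1low more than from CX3CR1high.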
